A study of Homo sapiens with 6 samples.

Results

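Autophagy machinery and receptors were examined as a set of 39 human genes. They encode core proteins of autophagosome formation, 4 members of the ATG8 family, cargo receptors and 2 factors of autophagosome fusion. The genes were taken by symbol from a list written by role, and no threshold on their values entered the rule, although earlier results of these data were known when the list was made. All 39 were found among the 12982 genes of the deposited table. None was lost to a filter on low counts, and the lowest count of any of them in a library was 94. SW480, an established human colorectal adenocarcinoma line without further genetic change, was cultured with the solvent DMSO or with MPM-1, a mitochondria-targeting fluorescent probe that the labels also call WT4. Exposure lasted 24 h, and polyadenylated RNA was sequenced from 3 libraries per treatment. The dose of MPM-1 used for sequencing is not given in the sources used here. SW480 is a single line, and nothing in the labels says that the 3 libraries of a treatment came from separate cultures, so p-values measure the spread between these libraries, which may be technical.

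In autophagy, a flat membrane closes around cytoplasm or around selected cargo to form the autophagosome, which then fuses with the lysosome. The ULK1 kinase complex starts the process, a class III phosphatidylinositol 3-kinase complex marks the growing membrane, and WIPI, ATG2 and ATG9 proteins supply lipid to it. A conjugation system related to ubiquitin transfer attaches ATG8 proteins (LC3 and GABARAP) to the membrane, where they hold cargo receptors such as SQSTM1. Both the ATG8 proteins and the receptors bound to them are themselves degraded in the lysosome, so their transcripts are read here only as RNA levels.

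The reference promoters of 5 members whose transcripts rose are shown. They were not chosen by a rule, and OPTN and TAX1BP1, which rose more than CALCOCO2, are not among them. RefSeq windows on GRCh38.p14, from 250 bases before to 50 bases after each annotated start, matched 34 of the 39 members with 43 windows, while RB1CC1, UVRAG, ATG4D, STX17 and EPG5 were not matched. The 250 bases before the start are printed 5′ to 3′ for SQSTM1 (the last of its 3 annotated starts, plus strand, chr5:179820655-179820904), MAP1LC3B (plus strand, chr16:87392086-87392335), CALCOCO2 (plus strand, chr17:48830785-48831034), GABARAPL1 (plus strand, chr12:10212627-10212876) and WIPI1 (minus strand, chr17:68457497-68457746). Capitals mark TGACNNNGC in MAP1LC3B, the same motif read on the opposite strand in CALCOCO2, and TGACGTCA in GABARAPL1. Neither motif was found in the windows of OPTN and TAX1BP1, so the printed stretches do not represent the members that rose.
SQSTM1: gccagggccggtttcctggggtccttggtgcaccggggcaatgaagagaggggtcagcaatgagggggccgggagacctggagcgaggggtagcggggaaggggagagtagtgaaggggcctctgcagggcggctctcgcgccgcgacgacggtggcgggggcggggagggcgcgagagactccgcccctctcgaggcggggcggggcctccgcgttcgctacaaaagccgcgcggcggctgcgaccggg
MAP1LC3B: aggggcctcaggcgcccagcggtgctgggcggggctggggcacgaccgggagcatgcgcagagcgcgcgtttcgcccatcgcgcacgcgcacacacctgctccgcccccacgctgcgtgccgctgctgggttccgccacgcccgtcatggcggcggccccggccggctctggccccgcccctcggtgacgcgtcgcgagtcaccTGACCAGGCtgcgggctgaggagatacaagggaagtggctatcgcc
CALCOCO2: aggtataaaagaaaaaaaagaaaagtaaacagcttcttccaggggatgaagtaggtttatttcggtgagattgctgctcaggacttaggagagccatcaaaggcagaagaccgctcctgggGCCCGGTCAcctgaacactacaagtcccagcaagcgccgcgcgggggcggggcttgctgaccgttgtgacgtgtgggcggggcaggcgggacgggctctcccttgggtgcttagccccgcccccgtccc
GABARAPL1: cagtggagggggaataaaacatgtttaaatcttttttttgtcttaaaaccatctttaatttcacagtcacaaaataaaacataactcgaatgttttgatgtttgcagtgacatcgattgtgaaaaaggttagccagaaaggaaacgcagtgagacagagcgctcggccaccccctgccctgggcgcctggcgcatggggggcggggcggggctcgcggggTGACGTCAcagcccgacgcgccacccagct
WIPI1: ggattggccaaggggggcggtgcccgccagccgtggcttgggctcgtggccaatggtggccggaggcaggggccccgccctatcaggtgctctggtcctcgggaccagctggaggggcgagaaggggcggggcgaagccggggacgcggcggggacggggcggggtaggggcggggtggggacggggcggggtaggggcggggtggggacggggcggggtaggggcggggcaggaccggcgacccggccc
The core of the antioxidant response element, searched as TGACNNNGC on both strands, was found in the windows of ATG101, MAP1LC3B, CALCOCO2 and TOLLIP, or 9.3% of the members' windows against 13.3% of all 35116 windows in the table. The C/EBP-ATF response element core TGATGNAA was in no member's window and in 3.62% of all windows. TCACGTGA, the core of the CLEAR element of lysosomal genes, was found in ATG3 alone, 5 bases after the start. That is 2.33% of the members' windows, against 0.98% of all windows. A cAMP response element, TGACGTCA, lay in the GABARAPL1 window alone, or 2.33% of the members' windows, near the 1.85% of all windows. The GC box GGGCGG was in 65.1% of the members' windows and in 45% of all windows, with 4 copies on either strand in the printed SQSTM1 stretch and 9 in that of WIPI1. The last 2 motifs were added after the windows had been read, and no 2 different motifs overlapped in the printed stretches. These matches describe the letters of the reference and not occupied sites.

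After MPM-1, 23 of the 39 autophagy genes were higher and 3 were lower, while 13 did not pass the test. The treatments were compared on the counts by quasi-likelihood in edgeR, with p-values adjusted over all 12982 genes (Benjamini-Hochberg), and an adjusted p under 0.05 counted as a call. Among all genes tested, 27.7% were higher and 28.8% were lower by the same rule, so the members that rose made up a larger share than the background and those that fell a smaller one. The members' median log2 fold change (log2 of the level with MPM-1 over that with DMSO) was 0.33, against -0.03 over all genes, and 30 members had a positive and 9 a negative value. With a log2 fold change of at least 1 and an adjusted p under 0.01, MAP1LC3B, SQSTM1, WIPI1, OPTN, TAX1BP1 and GABARAPL1 were higher, 6 of 39 members against 5.58% of all genes. By the mirror rule 0 members were lower, against 8.75% of all genes, and since the lowest member stood at -0.46 this count was also 0 at an unadjusted p under 0.05 in edgeR, in DESeq2 and in limma. Most rises were therefore below 2-fold on the linear scale, and the large ones lay in the ATG8 and receptor groups and in WIPI1.

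**Figure D1:**
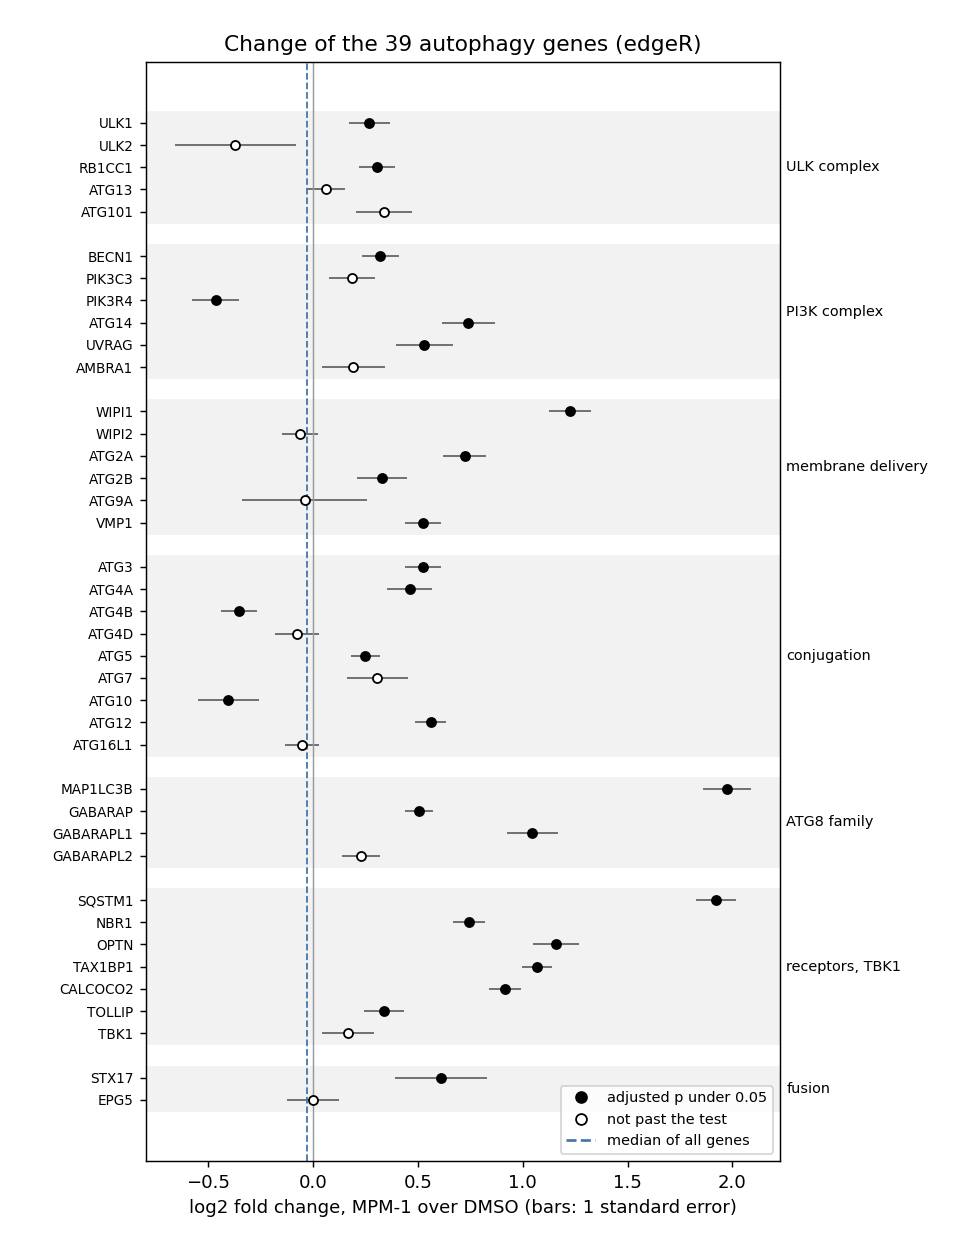
Log2 fold change of each autophagy gene (x axis, MPM-1 over DMSO, edgeR, bars of 1 standard error) by role group, with filled points for genes called at an adjusted p under 0.05 and a dashed line at the median of all genes. MAP1LC3B at 1.97 and SQSTM1 at 1.92 stand to the right of the other members, and the only filled points left of 0 are PIK3R4, ATG4B and ATG10.

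No called member changed direction with the scaling of the libraries, but the number of calls changed. With scaling by library size alone, the median over all genes shifted from -0.03 to -0.18 and that of the members from 0.33 to 0.18, so the distance between the medians was 0.35 in place of 0.36. Under that scaling 16 members were higher and 4 lower. Of all called genes 49% were higher with TMM scaling (edgeR's trimmed mean of M-values), against 34.7% with library size alone and 36.7% with limma on log2(FPKM + 0.1). FPKM, fragments scaled for transcript length and library size, carry no TMM rescaling, and their all-gene median in limma was -0.15. In FPKM, all 3 MPM-1 libraries lay above all 3 DMSO libraries for 18 members (22.3% of all genes) and below them for 6 members (40.5% of all genes), and the libraries overlapped for 15. Of the 23 members called higher, 6 overlapped in FPKM, namely ULK1, RB1CC1, BECN1, ATG2B, TOLLIP and STX17. Of the 26 calls, 16 held in each of the 16 alternative settings tried, 14 of them higher and 2 lower, the latter being PIK3R4 and ATG4B.

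**Figure D2:**
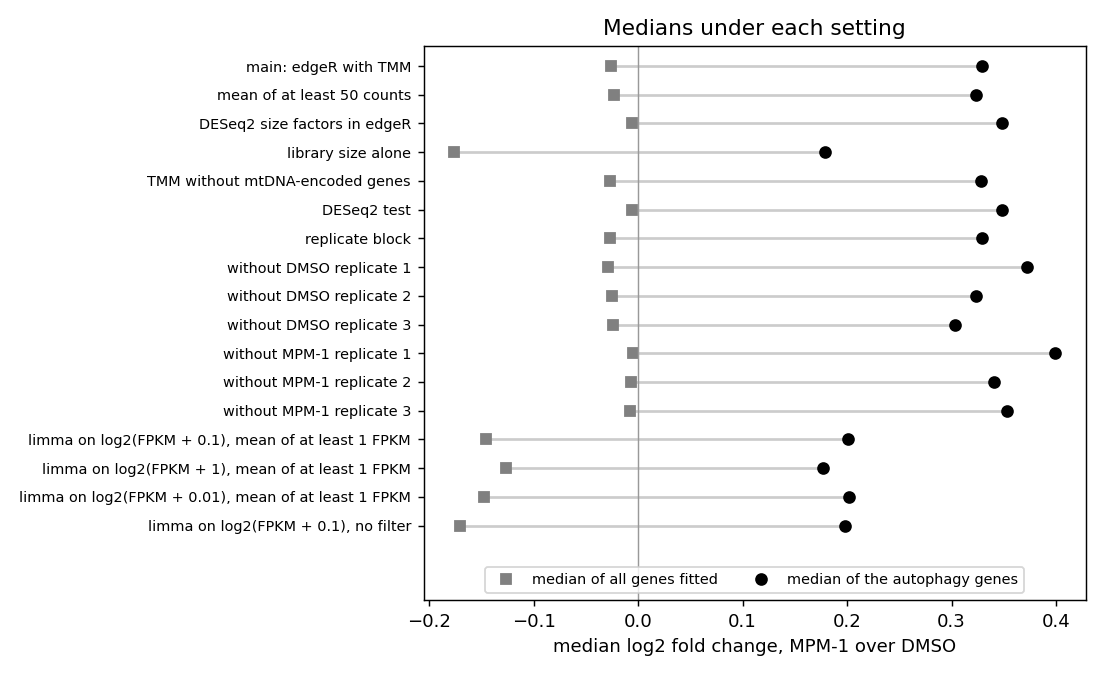
Median log2 fold change of the autophagy genes (circles) and of all genes fitted (squares) under the main fit and each of 16 alternative settings. The members' median ranged from 0.18 to 0.40 and stayed to the right of the all-gene median in each setting.

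The libraries summed to between 32095456 and 40269820 counts with DMSO and between 31733667 and 35403841 with MPM-1. The autophagy genes took 0.326% to 0.364% of these counts with DMSO and 0.701% to 0.763% with MPM-1. Most of this difference was SQSTM1, and the other 38 members took 0.207% to 0.225% with DMSO and 0.294% to 0.295% with MPM-1. Transcripts of mitochondrial DNA moved the other way, from between 8.28% and 9.11% of counts to between 1.95% and 2.35%, and TMM factors estimated without them left the calls at 23 higher and 3 lower. Markers of cell type were also read, although they cannot identify a particular line. Every gene of the table has counts, so presence there is no test. Of the colon epithelial markers, CEACAM5 was not in the table and 10 were, with EPCAM at 347 to 424 FPKM in all libraries. They moved both ways after MPM-1, as CDH1, KRT8, KRT18, KRT19 and LGALS4 rose, KRT20, CDX1, CDX2 and VIL1 fell and EPCAM did not pass the test, and their part in the results was not tested. Of the markers of fibroblasts, endothelium and leukocytes, COL1A1, PDGFRB and CD14 were in the table, the first 2 at no more than 0.51 FPKM and CD14 at between 1.07 and 5.37 FPKM. In bulk RNA, fewer cells expressing a gene and less RNA per cell cannot be told apart.

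SQSTM1 had the highest transcript level of the set. In the group of receptors and TBK1, 6 of the 7 genes rose (27.7% of all genes), with a group median of 0.92 on the log2 scale. SQSTM1 (ENSG00000161011, chromosome 5, 179806398 to 179838078 on GRCh38) encodes p62, which binds ubiquitinated cargo and LC3 and also holds KEAP1, the inhibitor of NRF2. Its level was 465, 408 and 391 FPKM in the DMSO libraries and 1545, 1331 and 1382 FPKM in the MPM-1 libraries. No library of one treatment came near the other, and SQSTM1 rose 3.79-fold (log2 fold change 1.92 ± 0.0949, SE, adjusted p = 6.58e-07). Only 1.41% of all genes had a larger log2 fold change. A stretch of 1582 exonic bases of SQSTM1 is shared with MRNIP on the opposite strand, and whether the counting used strand is not given in the sources used here. Many other members also share exonic bases with a gene on the opposite strand, among them WIPI1 and ATG10.

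OPTN, a ubiquitin-binding receptor that acts in mitophagy and in the clearance of bacteria, had 28.6, 23.3 and 23.5 FPKM with DMSO and 56, 50.1 and 50.5 FPKM with MPM-1. Its log2 fold change was 1.16 ± 0.108 (SE, adjusted p = 2.33e-05). TAX1BP1, which serves protein aggregates and links ubiquitin to ATG8 proteins, stood at 51.7, 49.4 and 50.3 FPKM and then at 97.6, 91.4 and 88.9 FPKM. The libraries of each treatment lay close together for TAX1BP1, and its log2 fold change was 1.07 ± 0.0732 (SE, adjusted p = 4.17e-06). CALCOCO2, known as NDP52, a receptor for bacteria and damaged mitochondria, moved from 19.3, 21 and 21 FPKM to 36.5, 33.8 and 33.1 FPKM. This was 0.92 ± 0.0758 on the log2 scale (SE, adjusted p = 1.19e-05). NBR1, a relative of SQSTM1 that gathers ubiquitin condensates, rose from 21.1, 21.8 and 20.1 FPKM to 32.6, 31.6 and 30.3 FPKM, or by 0.75 ± 0.0769 (SE, adjusted p = 4.18e-05). In these 4 receptors, as in SQSTM1, the treatments did not overlap. They were called in every alternative setting.

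TOLLIP, an adaptor with a ubiquitin-binding CUE domain, rose by less, 0.34 on the log2 scale (adjusted p = 0.0127). Its FPKM overlapped between treatments, at 15.6 to 18.4 with DMSO and 18.1 to 21.7 with MPM-1, and without the third DMSO library its adjusted p was 0.0546. TBK1, the kinase that phosphorylates OPTN and SQSTM1, had 10.4 to 15.7 FPKM with MPM-1 around the 12.7 to 13.5 FPKM of DMSO. Its log2 fold change of 0.17 did not pass the test (adjusted p = 0.27), although it reached 0.32 with an adjusted p of 0.0138 when the first MPM-1 library, the lowest, was left out. The kinase upstream of the receptors thus differed between libraries with MPM-1 by more than between treatments.

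Because FPKM is scaled for length, the receptors could be set side by side. The summed FPKM of SQSTM1, NBR1, OPTN, TAX1BP1, CALCOCO2 and TOLLIP was 555 ± 43.5 (SD, n = 3) with DMSO and 1650 ± 121 (SD, n = 3) with MPM-1, a ratio of 2.97. SQSTM1 held 75.8% ± 1.04 of this sum with DMSO and 86% ± 0.501 with MPM-1 (SD, n = 3 each), 10.2 percentage points more. All other receptors held a smaller share after MPM-1 although 5 of them were higher as transcripts. Shares of one sum are tied to each other, and SQSTM1 had the largest rise, so the smaller shares are not separate results. The share of TAX1BP1 fell most, from 9.11% to 5.62%, followed by that of NBR1, from 3.79% to 1.91%, and that of TOLLIP, from 3.04% to 1.19%. For each share the treatments did not overlap, and the exact permutation test gave p = 0.1 (two-sided), the smallest that 3 libraries against 3 allow, so the design cannot reach 0.05.

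The ATG8 family showed the other large rises, in 3 of its 4 genes in the set (27.7% of all genes), with a median of 0.78. MAP1LC3A, an ATG8 gene outside the set, also rose, by 1.53 (adjusted p = 0.000431). Its level was low, at 1.36 to 1.66 FPKM with DMSO and 3.66 to 3.91 FPKM with MPM-1, and it is not in the sums and shares below. MAP1LC3B (ENSG00000140941, chromosome 16, 87383995 to 87404779 on GRCh38) encodes LC3B, the ATG8 protein most used to mark autophagosomes. It had 39.8, 34.6 and 33.1 FPKM with DMSO and 139.6, 113 and 130.4 FPKM with MPM-1. The lowest MPM-1 library was far above the highest DMSO library, and MAP1LC3B rose 3.93-fold (log2 fold change 1.97 ± 0.115, SE, adjusted p = 1.81e-06), the largest change of the 39 genes. MAP1LC3B2, a gene on chromosome 12 with a nearly identical coding sequence, went from 3.08, 2.13 and 2.1 FPKM to 10.1, 6.77 and 9.31 FPKM. How the counting divided reads between such copies is not given in the sources used here, so the 2 rises cannot be told apart with certainty.

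GABARAPL1 (chromosome 12, 10212458 to 10223130), a close relative of GABARAP, stood at 14.4, 14.5 and 13.9 FPKM with DMSO and at 30.6, 25.3 and 26 FPKM with MPM-1. This 2.06-fold rise (log2 fold change 1.05 ± 0.122, SE, adjusted p = 9.06e-05) was below a log2 value of 1 in some settings and was called in all. GABARAP, the most abundant ATG8 transcript under DMSO, had 147, 152 and 149.9 FPKM with DMSO and 185, 198 and 191 FPKM with MPM-1. It rose by 0.51 ± 0.0668 (SE, adjusted p = 0.000185), and 691 of its exonic bases are shared with AC120057.2 on the same strand. GABARAPL2, or GATE-16, overlapped between treatments in FPKM, with 84.8 to 88.8 FPKM and 81 to 98.4 FPKM. Its log2 fold change of 0.23 did not pass the test (adjusted p = 0.0553), and it passed with an adjusted p of 0.0053 when the second MPM-1 library was left out.

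The order of the levels of the 4 ATG8 genes in the set therefore changed. Under DMSO it ran GABARAP, GABARAPL2, MAP1LC3B and GABARAPL1, and with MPM-1 MAP1LC3B lay above GABARAPL2 in each library. The summed FPKM of the 4 genes was 285.7 ± 0.101 with DMSO and 437 ± 17.1 with MPM-1 (SD, n = 3 each), a ratio of 1.53. MAP1LC3B held 12.5% ± 1.23 of the sum with DMSO and 29.2% ± 2.01 with MPM-1 (SD, n = 3 each), a gain of 16.6 percentage points. The share of GABARAP went from 52.3% to 43.9% and that of GABARAPL2 from 30.2% to 20.7%, while GABARAPL1 gained 1.25 points, from 4.99% to 6.24%. As for the receptors, the shares are tied to each other, each differed without overlap and each exact permutation p was 0.1 (two-sided).

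**Figure D3:**
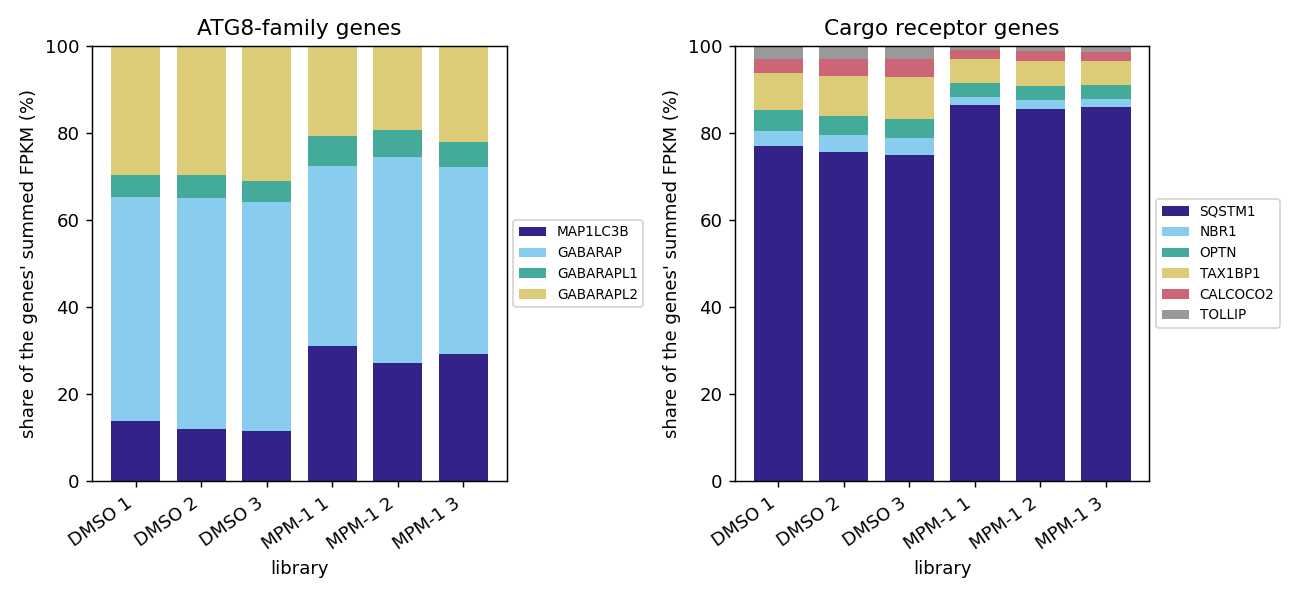
Share of the summed FPKM (y axis, percent) held by each of the 4 ATG8 genes and by each of the 6 cargo receptors in each of the 6 libraries (stacked bars). The MAP1LC3B share lies between 27.1% and 31.1% in the MPM-1 libraries against 11.6% to 13.9% with DMSO, and the SQSTM1 share lies between 85.5% and 86.5% with MPM-1 against 75% to 77% with DMSO.

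In the group that delivers membrane, 4 of 6 genes rose and none fell (27.7% and 28.8% of all genes), with a median of 0.43. WIPI1 (chromosome 17, 68420948 to 68457513), a protein that binds phosphatidylinositol 3-phosphate on the growing membrane, had 15.7, 15 and 12.9 FPKM with DMSO and 33.2, 30.5 and 30.3 FPKM with MPM-1. It rose 2.34-fold (log2 fold change 1.23 ± 0.101, SE, adjusted p = 1.19e-05). WIPI1 shares 828 exonic bases with ARSG on the opposite strand. Its paralog WIPI2, which recruits ATG16L1, did not pass the test (log2 fold change -0.06, adjusted p = 0.558), with 33.3 to 38.8 FPKM and 28.5 to 32.3 FPKM. Under scaling by library size alone WIPI2 was called lower, at -0.21 (adjusted p = 0.0411).

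The lipid-transfer protein gene ATG2A went from 7.95, 6.51 and 5.9 FPKM to 9.83, 10.6 and 10.0 FPKM, a rise of 0.72 ± 0.102 (SE, adjusted p = 0.000272). Its paralog ATG2B was lower in level, at 1.08 to 1.27 FPKM with DMSO and 1.24 to 1.53 FPKM with MPM-1. The rise of ATG2B was 0.33 (adjusted p = 0.0387), and it was no longer called without any one of 5 of the 6 libraries, with adjusted p between 0.0618 and 0.0997. VMP1, a lipid scramblase of the endoplasmic reticulum, rose from 40.6, 39 and 38.6 FPKM to 45.6, 56.6 and 51 FPKM, or by 0.52 ± 0.0857 (SE, adjusted p = 0.000676). The WIPI and ATG2 pairs thus each held 1 gene with a larger and 1 with a smaller change, and the difference within a pair was not tested. ATG9A, the scramblase of the vesicles that seed the membrane, had 15.9, 13 and 6.28 FPKM with DMSO and 12.5, 9.03 and 9.77 FPKM with MPM-1. In FPKM the third DMSO library lay below the MPM-1 libraries and the other DMSO libraries above them. The log2 fold change of -0.04 did not pass the test (adjusted p = 0.922). ATG9A shares 1833 exonic bases with AC068946.2 on the same strand.

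**Figure D4:**
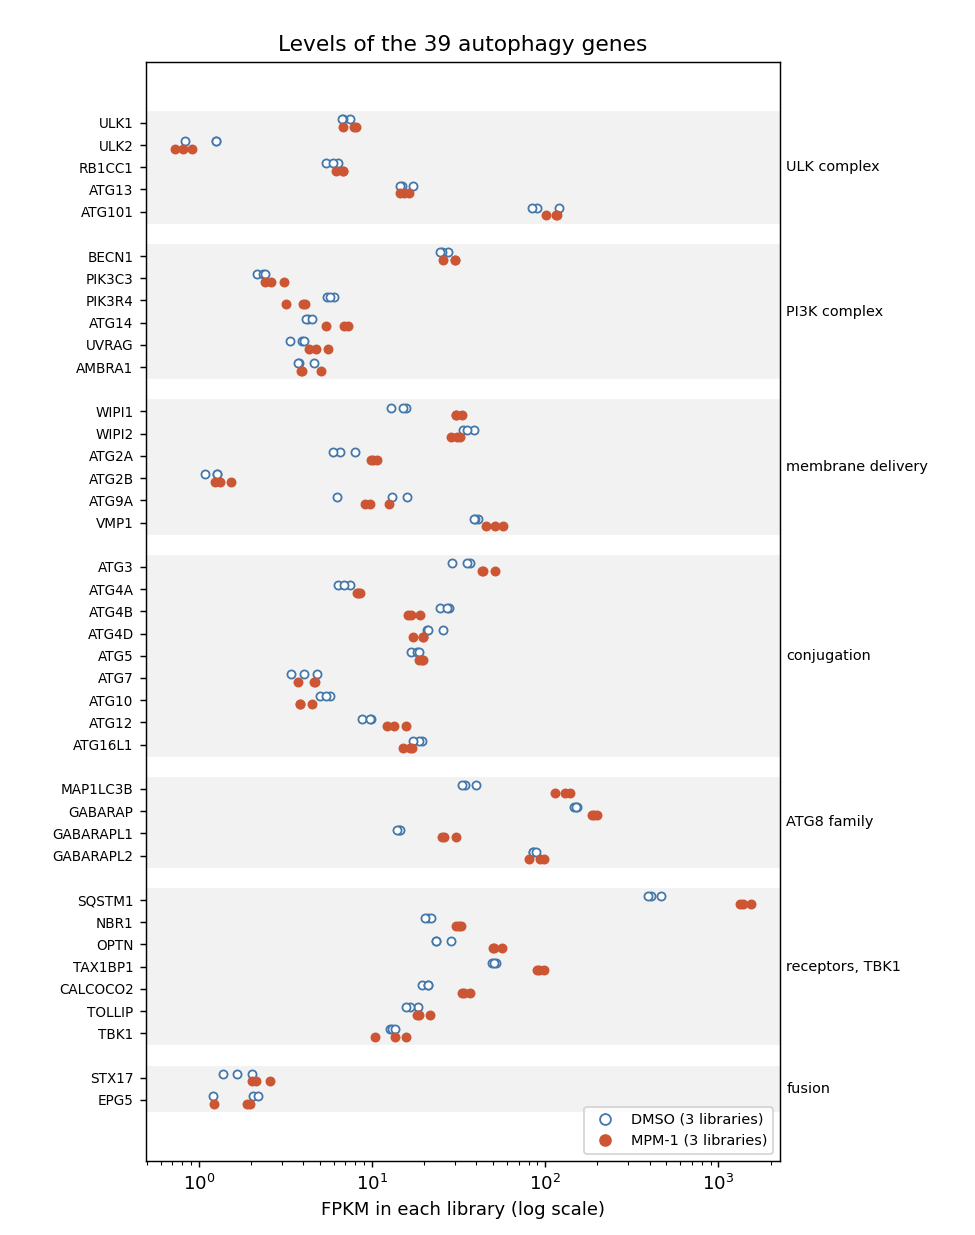
FPKM of each autophagy gene in each library (x axis, log scale) by role group, with open circles for the 3 DMSO and filled circles for the 3 MPM-1 libraries. Levels run from 0.726 FPKM for ULK2 to 1545 FPKM for SQSTM1, and the filled circles are clear of the open ones for MAP1LC3B, SQSTM1, WIPI1, OPTN, TAX1BP1 and GABARAPL1.

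Of the 6 genes of the class III phosphatidylinositol 3-kinase complexes and their regulators, 3 rose and 1 fell, with a median of 0.26. Among all genes 27.7% were higher and 28.8% lower. ATG14, the subunit that directs the kinase to autophagosome formation, had 4.28, 4.17 and 4.51 FPKM with DMSO and 6.83, 5.42 and 7.2 FPKM with MPM-1. It rose by 0.74 ± 0.125 (SE, adjusted p = 0.000792), and the treatments did not overlap. UVRAG, which takes the place of ATG14 in the complex of endosomes, rose from 3.36, 3.93 and 4.04 FPKM to 5.59, 4.3 and 4.76 FPKM, or by 0.53 ± 0.137 (SE, adjusted p = 0.00834). With limma on FPKM its adjusted p lay between 0.0571 and 0.0652. BECN1, the scaffold common to both complexes, rose by 0.32 (adjusted p = 0.0116), although its FPKM overlapped, at 24.7 to 27.2 and 25.7 to 30.2. It was not called with scaling by library size alone (adjusted p = 0.128).

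The regulatory subunit gene PIK3R4, or VPS15, went the other way. It had 5.5, 6.03 and 5.71 FPKM with DMSO and 3.16, 3.99 and 4.1 FPKM with MPM-1. The treatments did not overlap, and its log2 fold change of -0.46 ± 0.112 (SE, adjusted p = 0.00618) was the lowest of the 39 genes. The catalytic subunit PIK3C3, or VPS34, stood at 2.15 to 2.4 FPKM and 2.4 to 3.09 FPKM, with a log2 fold change of 0.19 that did not pass the test (adjusted p = 0.172). AMBRA1, which binds BECN1 and stabilizes ULK1, likewise did not pass, at 0.19 (adjusted p = 0.295). The kinase and its obligate partner VPS15 thus had fold changes of opposite sign, of which that of VPS15 alone was called.

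Of the 5 genes of the ULK complex, 2 rose and none fell (27.7% and 28.8% of all genes), with a median of 0.27. RB1CC1, the scaffold FIP200, rose by 0.31 (adjusted p = 0.0125), with 5.42 to 6.36 FPKM under DMSO and 6.15 to 6.82 FPKM under MPM-1. ULK1, the kinase that gives the complex its name, rose by 0.27 (adjusted p = 0.0378), with 6.65 to 7.45 FPKM and 6.82 to 8.02 FPKM. The ULK1 call was lost without any one of 4 libraries, the second and the third of DMSO and the first and the second of MPM-1, with adjusted p between 0.068 and 0.123. Both calls were also lost with scaling by library size alone, at adjusted p of 0.174 for RB1CC1 and 0.299 for ULK1. ATG101, the most abundant of the group at 84.2 to 119.7 FPKM with DMSO, had a log2 fold change of 0.34 that did not pass (adjusted p = 0.0536). Its first DMSO library was the highest of the 6, and without it the value was 0.53 (adjusted p = 0.00126). ATG13, the adaptor between ULK1 and RB1CC1, had 0.06 (adjusted p = 0.591). ULK2, the paralog of ULK1 with 0.726 to 1.25 FPKM over all libraries, had -0.37 (adjusted p = 0.299).

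Among the 9 conjugation genes 4 rose, 2 fell and 3 did not pass the test, against 27.7% higher and 28.8% lower of all genes. Their calls were the most mixed of the groups by direction. ATG12, the ubiquitin-like protein that is joined to ATG5, rose from 9.83, 8.78 and 9.76 FPKM to 13.4, 15.7 and 12.2 FPKM. This was 0.56 ± 0.0732 on the log2 scale (SE, adjusted p = 0.000171). ATG3, the enzyme that passes ATG8 proteins to lipid, rose from 36.6, 35.3 and 28.8 FPKM to 43.3, 51.4 and 43.9 FPKM, or by 0.52 ± 0.0864 (SE, adjusted p = 0.000709). For both genes every MPM-1 library was above every DMSO library. ATG5, the partner of ATG12, rose by 0.25 (adjusted p = 0.0134), but it was not called with library size alone (adjusted p = 0.283) or without the second DMSO library (adjusted p = 0.0502). ATG16L1, which binds the ATG12-ATG5 conjugate and places it on the membrane, had -0.05 (adjusted p = 0.601), with 17.2 to 19.4 FPKM and 15.1 to 17 FPKM.

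ATG10, the enzyme that joins ATG12 to ATG5, fell (log2 fold change -0.40, adjusted p = 0.0368), with 5.01 to 5.72 FPKM under DMSO and 3.8 to 4.51 FPKM under MPM-1. That call was lost without the second or the third DMSO library or the first or the third MPM-1 library, with adjusted p between 0.0943 and 0.122. ATG10 also shares 374 exonic bases with RPS23 on the opposite strand. ATG7, the activating enzyme of both conjugation branches, had 0.31 and did not pass (adjusted p = 0.0972). It passed without the third DMSO library (adjusted p = 0.0482) and without the first MPM-1 library (adjusted p = 0.0272). The ATG4 proteases, which trim ATG8 proteins and release them from the membrane, differed in direction. ATG4A rose by 0.46 ± 0.106 (SE, adjusted p = 0.00471), with 6.3 to 7.39 FPKM and then 8.13 to 8.47 FPKM. ATG4B, the protease with the broadest activity on ATG8 proteins, fell by 0.35 on the log2 scale (SE 0.084, adjusted p = 0.00563), with 24.6 to 27.7 FPKM and then 16 to 18.8 FPKM. ATG4D had -0.07 (adjusted p = 0.571), with 20.6 to 25.6 FPKM and 17.1 to 19.7 FPKM.

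The fusion factors were STX17 and EPG5. STX17, the autophagosomal SNARE, was called higher at 0.61 ± 0.218 (SE, adjusted p = 0.0363), with 1.66, 2.03 and 1.37 FPKM and 2.01, 2.58 and 2.12 FPKM. The treatments overlapped, and the call was lost without any one of 4 libraries, the first and the third of DMSO and the second and the third of MPM-1, with adjusted p between 0.0634 and 0.127. EPG5, a tether between autophagosome and lysosome, had 1.21 to 2.19 FPKM and 1.23 to 1.97 FPKM, and did not pass the test (adjusted p = 0.9995).

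Across the 39 genes the log2 fold change was only weakly related to the level under DMSO (Spearman's rho 0.28 across genes, against 0.093 over all 12982 genes) and to length as read from the ratio of counts to FPKM (rho -0.18, against 0.0077). These are descriptions over genes of the same 6 libraries. Without the ATG8 and receptor groups, the other 28 members had 14 higher and 3 lower calls (27.7% and 28.8% of all genes) and a median of 0.29.

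Other genes of the pathway were taken from lists written by role, 57 genes of which 54 were in the table, MAP1LC3C, GABARAPL3 and RUBCNL being not analysed here. Of the 54, 32 were higher, 4 were lower and 18 did not pass the test, with a median of 0.35. Among all genes 27.7% were higher and 28.8% lower, with a median of -0.03. Among 10 further ATG and LC3 genes 8 rose. WDR45, or WIPI4, the fourth protein of the WIPI family, rose by 1.67 (adjusted p = 5.66e-07), with 31.7 to 36.4 FPKM and then 95.2 to 103 FPKM, although 757 of its exonic bases are shared with PRAF2 on the same strand. MAP1LC3B2 rose by 1.99 (adjusted p = 0.000228) and ATG9B, the second ATG9 gene, by 1.62 (adjusted p = 0.000144), whereas the protease gene ATG4C fell by 0.88 (adjusted p = 0.000578). With ATG4C counted, 2 of the 4 ATG4 genes fell and 1 rose.

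Among 14 genes of fusion and tethering 8 rose and 1 fell, against 27.7% and 28.8% of all genes. PLEKHM1, an adaptor between RAB7, LC3 and the HOPS tether, rose by 0.92 (adjusted p = 5.59e-05), the HOPS subunit VPS11 by 0.77 (adjusted p = 0.000101) and the endosomal SNARE STX7 by 0.70 (adjusted p = 0.00113). FYCO1, which couples LC3 vesicles to kinesin, fell by 0.78 (adjusted p = 0.00312). Of 17 selective receptors of the endoplasmic reticulum, mitochondria and ferritin, 10 rose and 1 fell. CCPG1, a receptor for the endoplasmic reticulum, rose by 2.27 (adjusted p = 6.62e-08), more than any of the 39 members, with 8.32 to 10.0 FPKM and then 35.8 to 42.3 FPKM. Its exons share 3405 bases with the readthrough gene DNAAF4-CCPG1 on the same strand. CALCOCO1, a relative of CALCOCO2, rose by 1.38 (adjusted p = 2.16e-05) and RTN3, a reticulon that acts as a receptor for tubules, by 0.85 (adjusted p = 1.24e-05). The mitophagy receptor FUNDC1 fell by 0.48 (adjusted p = 0.0166), and its adjusted p was 0.0721 without the second DMSO library.

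Of 13 transcriptional and stress regulators of autophagy genes 6 rose and 1 fell, against 27.7% and 28.8% of all genes. DDIT3, or CHOP, rose by 2.98 (adjusted p = 3.06e-06), FOXO3 by 1.52 (adjusted p = 5.8e-06) and TP53INP2, a nuclear cofactor that also binds ATG8 proteins, by 1.05 (adjusted p = 9.73e-05). ZKSCAN3, a repressor of autophagy and lysosome genes, fell by 1.11 (adjusted p = 0.0146), with 0.681 to 1.15 FPKM and then 0.236 to 0.514 FPKM, and that call was lost without the second DMSO library (adjusted p = 0.0703) or the third MPM-1 library (adjusted p = 0.0504). TFEB, a regulator that binds CLEAR elements, had -0.20 and did not pass the test (adjusted p = 0.506). TFE3 and MITF of the same list did not pass either, at 0.04 (adjusted p = 0.719) and 0.34 (adjusted p = 0.381). With DMSO the mean FPKM was 24.0 for TFE3, 3.38 for TFEB and 0.389 for MITF. ATF4 rose by 1.04 (adjusted p = 1.31e-05) and NFE2L2, which encodes NRF2, by 0.74 (adjusted p = 7.32e-05). Whether any of these factors acts on the members was not tested.

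**Figure D5:**
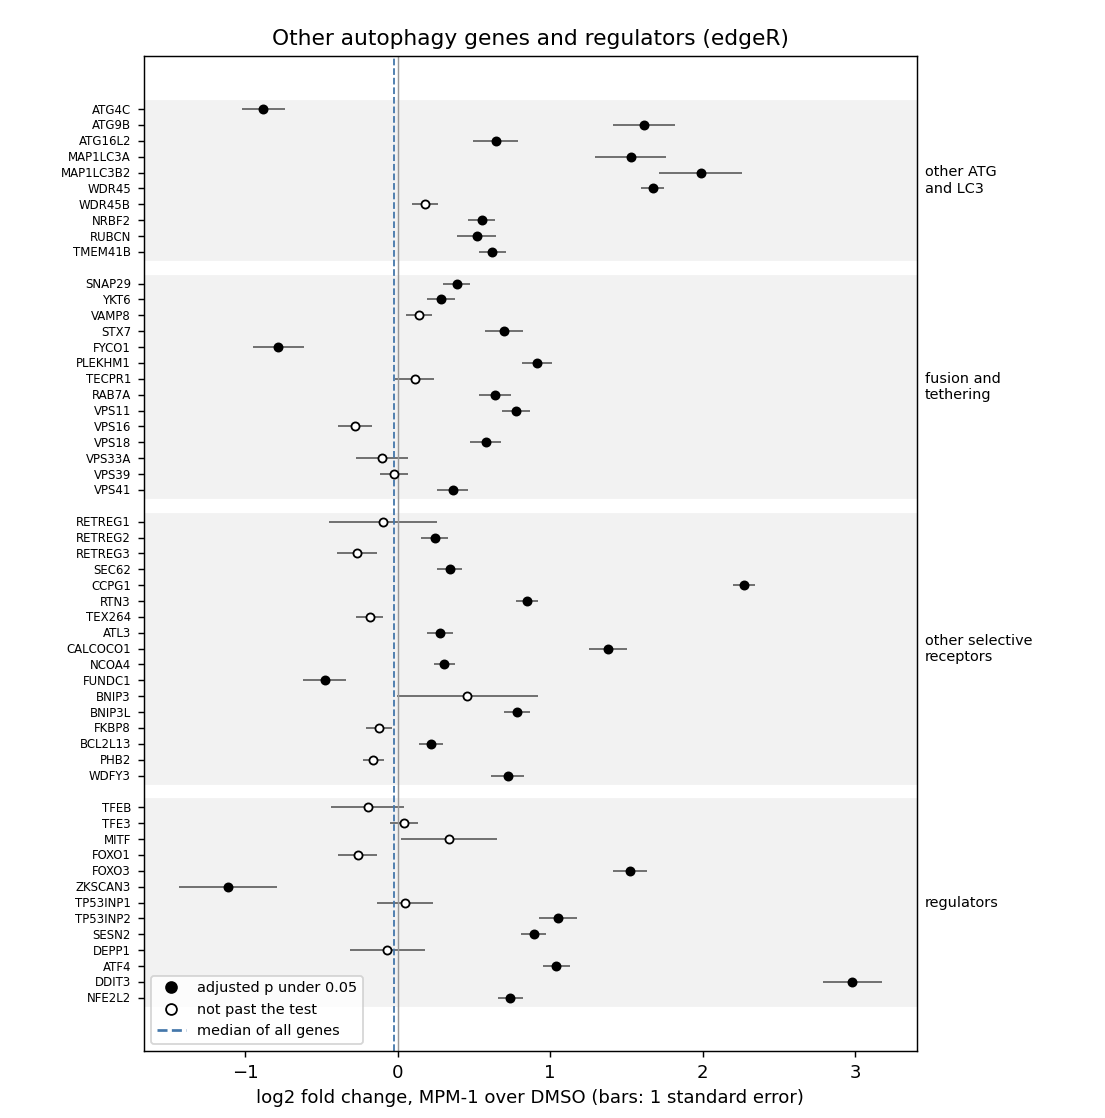
Log2 fold change of the 54 other autophagy genes and regulators (x axis, MPM-1 over DMSO, edgeR, bars of 1 standard error) in 4 lists, with filled points for genes called at an adjusted p under 0.05. DDIT3 at 2.98 and CCPG1 at 2.27 are the highest, and ATG4C, FYCO1, FUNDC1 and ZKSCAN3 are the filled points left of 0.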

How the data were processed

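The submitters' notes name HISAT2 and DESeq2, without roles, and the mouse build mm10, although the table's identifiers are of human Ensembl genes. The counter and annotation are not given in the sources used here. The authors deposited 1 table with whole-number counts per gene and library, not normalized, and with FPKM, scaled by the authors for length and library size. Its 2 columns of the authors' own comparison, a log2 fold change and an FDR, were not used. Of the 12982 genes, 12127 carry Ensembl identifiers and 855 carry NewGene identifiers.

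Samples were grouped by their titles. Counts were fitted over all genes with edgeR 4.0.16 in R 4.3.3 (TMM scaling, quasi-likelihood test, no covariates, no filter, Benjamini-Hochberg adjustment). The fit was also run on simulated counts in which few genes changed, as many up as down. That setting is unlike these data, so the run is no check of the scaling. Alternatives were a mean of at least 50 counts, other scalings, DESeq2 1.42.0, a replicate block, each library left out, and limma 3.58.1 on log2(FPKM + 0.1, 1 or 0.01). On that scale fold changes of low genes are understated. Values per library are given for called members whose log2 fold change reached 0.5 in either direction, and each other list is represented by its 3 largest called rises and falls. The members and lists were chosen with earlier results of these data known. TFEB, TFE3, MITF, ATF4, NFE2L2 and MAP1LC3A were named after their values were seen. Gene positions come from GENCODE release 29 on GRCh38. Counts of reads that carry no molecular identifier may overstate the number of molecules sampled.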

Additional observations from a re-analysis of the deposited data

How the results depend on the processing

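The number of autophagy genes called higher was 23. It was 15 with limma on log2(FPKM + pseudocount) at pseudocounts of 0.1, 1 and 0.01, and 14 without the FPKM filter. The first 3 of these fits hold 38 of the 39 members. The members' median log2 fold change of 0.33 moved to 0.18 with library size alone, to 0.20, 0.18 and 0.20 at the 3 pseudocounts, and to 0.20 without the filter. The distance to the all-gene median stayed between 0.30 and 0.40. Leaving out 1 library at a time, 20 to 25 members were higher and 2 or 3 lower, and the median lay between 0.30 and 0.40. DESeq2 called 25 higher and 3 lower, and an adjusted p under 0.01, a threshold chosen after seeing the data, left 16 and 2.

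With the replicate block, 24 members were higher and 3 lower, with a median of 0.33. ATG7 was the call gained (adjusted p = 0.0467). Same-numbered libraries deviated together with correlations of 0.061, 0.11 and -0.093, and differently numbered ones with -0.17 to 0.12. No pairing by number was seen. Deviations from a mean of 3 libraries depend on each other, so these values cannot show that the libraries were unpaired.

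No called member changed sign, but 6 members not called did. ATG13 had -0.087 with library size alone and -0.0072, -0.0069, -0.0072 and -0.0072 in the 4 limma fits, where TBK1 had -0.0061, -0.0045, -0.0063 and -0.0061. ATG9A had 0.057 with the replicate block and EPG5 0.020 with DESeq2's size factors and 0.020 with its test. With 1 library left out, WIPI2 ranged from -0.11 to 0.021, ATG9A from -0.36 to 0.29, ATG4D from -0.12 to 0.027 and EPG5 from -0.072 to 0.087.

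Of the 26 called members, 10 lost the call in at least 1 setting, and 5 others gained one. Log2 fold changes between 0.25 and 0.34 were called for some members and not for others.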
